A study of Mus musculus with 30 samples.

Results

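The 38 genes described here are Hox cluster genes, the homeodomain transcription factors that pattern the body axis, taken by symbol from the 4 mouse clusters out of 49315 counted genes. Their RNA was measured in 30 cultures of fetal testis from C57BL/6 mice. Testes were removed on gestational day 14, freed of the mesonephros and held for 24 h on inserts in medium that carried the same DMSO dilution in every culture. Vehicle cultures (n = 15) received DMSO alone, and the others received MEHP at 100 µM (n = 6), ATRA at 1 µM (n = 5) or MEHP + ATRA at those same concentrations (n = 4). MEHP is a monoester formed from a phthalate plasticiser, and ATRA, all-trans retinoic acid, is the active vitamin A derivative that switches on retinoic acid receptors. The design asks what each compound alters in this organ and whether their joint exposure differs from either alone. Each title carries a pair of numbers that the labels do not explain. The second of them was below 500 in all ATRA and MEHP + ATRA libraries and in 9 vehicle libraries (lower range), and above 500 in all MEHP libraries and in 6 vehicle libraries (upper range), so each treatment was compared with the vehicle libraries of the matching range. The labels do not state that libraries of a group came from separate animals, and p-values therefore measure only the spread between these libraries, which may be technical.

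Mammalian Hox genes lie in 4 clusters, and genes at the same place in different clusters (paralogs) share a paralog number from 1 to 13. Genes with low numbers lie at the 3′ end of their cluster, and in the embryo they are switched on earlier and further forward along the axis than genes with high numbers. Retinoic acid is a classical inducer of the 3′ genes in embryos and in embryonal carcinoma cells, and Polycomb complexes hold silent Hox genes in repressed chromatin. In the files, the 10 members of cluster A lie on chromosome 6 (52162417 to 52260880, minus strand) and the 10 of cluster B on chromosome 11 (96194316 to 96368256, plus strand). The 9 members of cluster C lie on chromosome 15 (102921103 to 103036852, plus strand) and the 9 of cluster D on chromosome 2 (74668310 to 74765142, plus strand). These coordinates are those of GRCm38 for all 38 members, which are all annotated as protein coding.

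Total counts ranged from 17551454 to 29306917 per library. Sertoli, Leydig and germ cell markers were present in every library, as the labelled tissue requires. The count filter left 19323 genes and 30 of the 38 members. One of the 30, Hoxb1, reached the filter's level of 0.512 CPM (counts scaled to the library total) in 0 of 15 vehicle libraries and passed only through treated libraries, whereas the other 29 also passed in vehicle. The 8 members not tested were Hoxa11, Hoxa13, Hoxb13, Hoxc11, Hoxc12, Hoxc13, Hoxd12 and Hoxd13, which all have paralog numbers of 11 or more. These 8 held 0 to 23 counts per library and at most 1.21 CPM.

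Most Hox RNA in the vehicle testis came from cluster D. Per kb of exon, Hoxd9, a posterior gene whose relatives pattern the lumbar and sacral axis, had the highest level in lower-range vehicle at 59.5 ± 3.8 RPKM (CPM per kb of exon, mean ± SD, n = 9). Hoxd8 followed at 19.8 ± 1.5 RPKM, Hoxc6 at 14.5 ± 1.2 RPKM and Hoxd10 at 12.98 ± 1.36 RPKM. The ranges of Hoxd9, Hoxd8 and Hoxc6 did not overlap, while those of Hoxc6 and Hoxd10 did. A second tier held Hoxd4 (7.84 RPKM), Hoxb9 (6.95 RPKM), Hoxc4 (6.71 RPKM), Hoxc8 (5.35 RPKM) and Hoxc5 (4.14 RPKM), and neighbours in this order overlapped. From Hoxc9 (2.57 RPKM) downwards the levels formed a continuous series in which neighbours overlapped. The lowest of the tested members was Hoxb1, the paralog known for setting the identity of a hindbrain segment, at 0.0538 RPKM. The members of cluster D together held 66.6 ± 0.96% of the summed RPKM of all 38 members in these 9 libraries, against 22.8 ± 0.93% for cluster C, 7.33 ± 0.52% for cluster B and 3.31 ± 0.28% for cluster A.

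**Figure D1:**
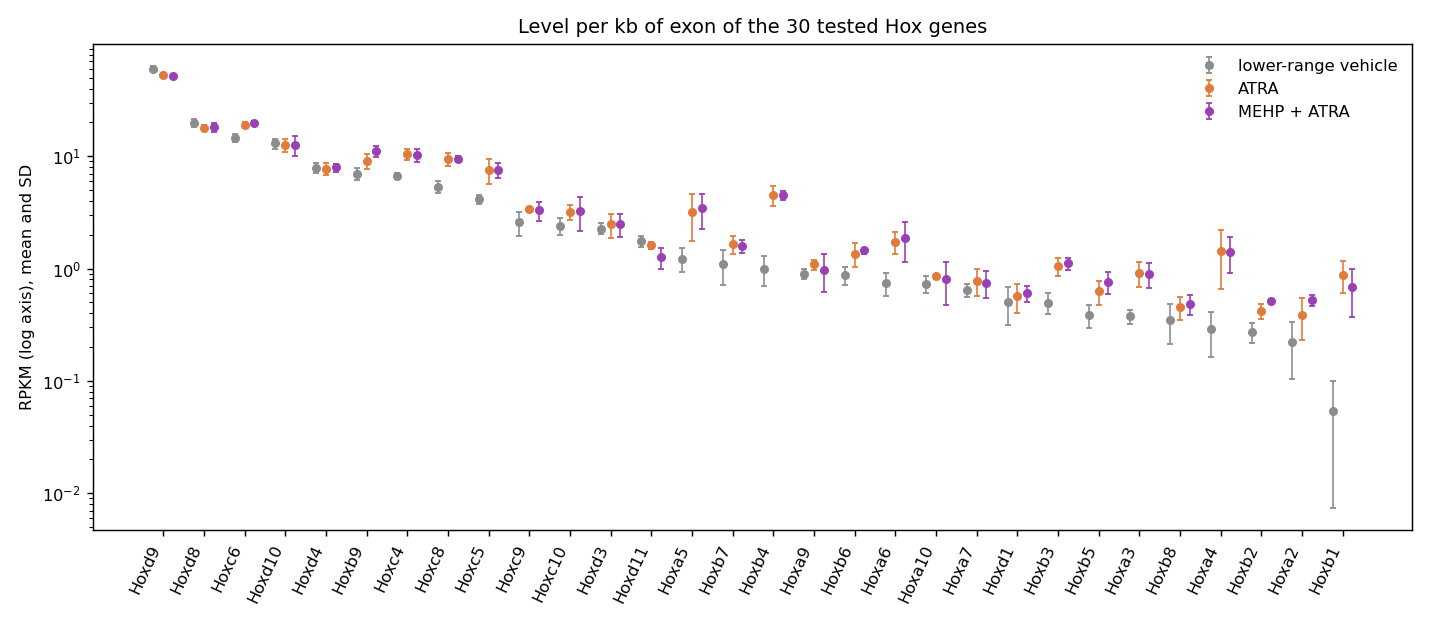
Level per kb of exon (RPKM, log axis) of the 30 tested Hox genes in lower-range vehicle (n = 9), ATRA (n = 5) and MEHP + ATRA (n = 4) libraries. Points are means and bars are SD, and genes are ordered by their level in lower-range vehicle. The treated points lie clearly above vehicle for low-level genes such as Hoxb1, Hoxa4 and Hoxb4, and close to it for the Hoxd genes.

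With ATRA, Hox genes of clusters A, B and C rose, and in cluster D 0 rose and 1 fell. Hoxb1 had to differ to be tested, so the counts here are over the other 29 tested members. Of these, 16 rose and 1 fell (edgeR quasi-likelihood F test, Benjamini-Hochberg adjusted p under 0.05), while over all 19323 genes 9.06% rose and 9.03% fell. Their median log2 change was 0.42, against 0 over all genes tested. By cluster, 4 of 8 members of A rose, 7 of 8 of B, 5 of 6 of C and 0 of 7 of D. Within clusters A to C, 12 of the 13 members with paralog numbers 1 to 6 rose, with a median log2 change of 0.87, and 4 of the 9 with numbers 7 to 10 rose, with a median of 0.39. That difference between low and high numbers was not tested. Spearman's rho between paralog number and log2 change was -0.67 in A (8 genes), -0.71 in B (8 genes), -0.37 in C (6 genes) and -0.71 in D (7 genes), a description over genes that share their libraries. Without ATRA replicate 3 the calls of Hoxb2, Hoxb5, Hoxb6, Hoxb9 and Hoxc9 were lost.

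**Figure D2:**
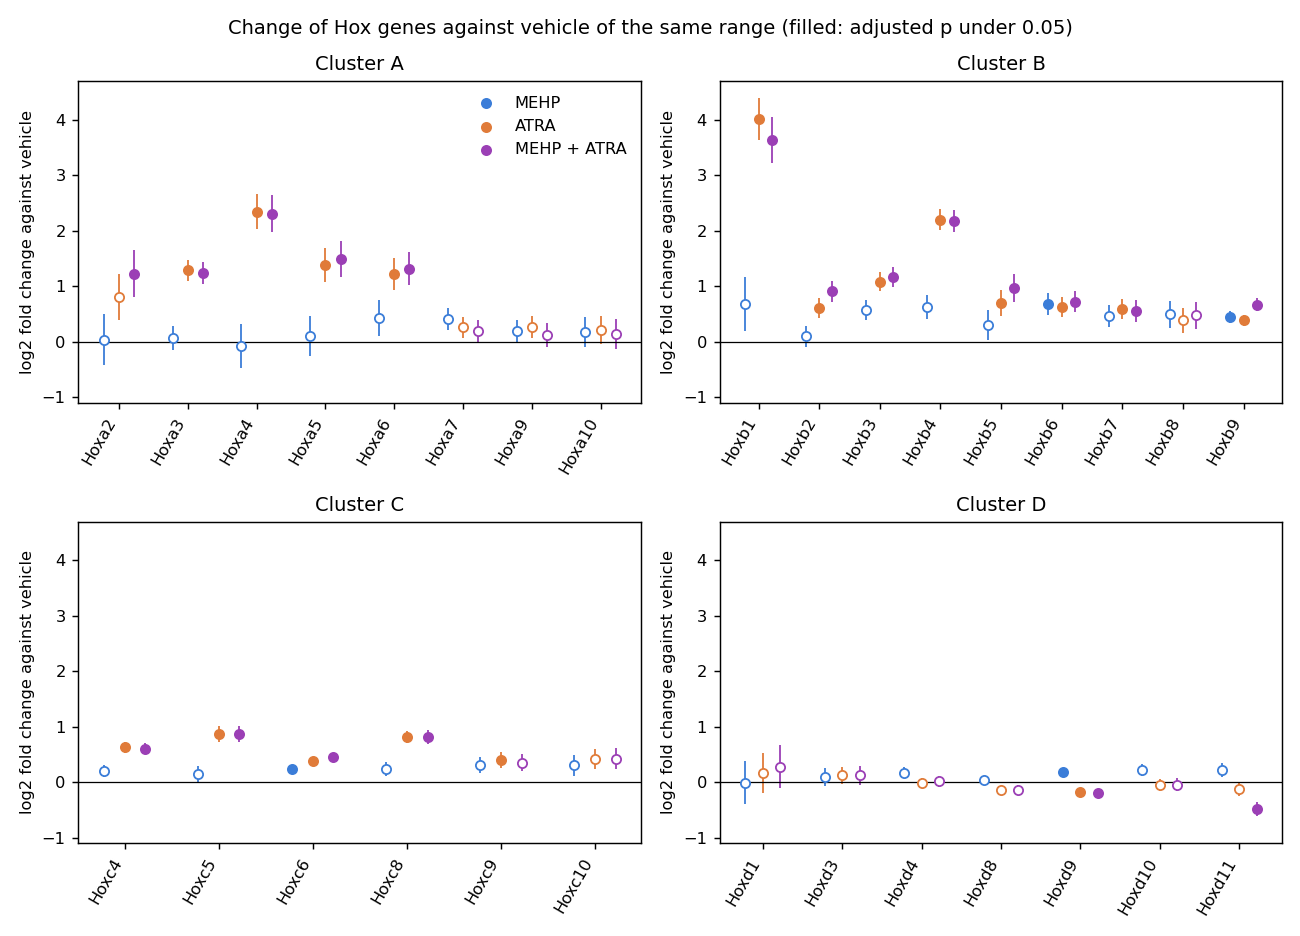
Log2 fold change against vehicle of the same range (vertical axis) for each tested Hox gene, in 4 panels by cluster, with genes ordered by paralog number from left to right. Points are estimates for MEHP (n = 6), ATRA (n = 5) and MEHP + ATRA (n = 4), bars are SE, and filled points passed an adjusted p of 0.05. The filled points of Hoxb1 do not count as a test, because this gene entered only through exposed libraries. Hoxb1, Hoxa4 and Hoxb4 stand highest with ATRA, and the cluster D panel stays near 0.

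Hoxb1, which entered the test only through exposed libraries, is described here without a p-value. Its level was 1.35, 2.70, 2.70, 1.49 and 2.00 CPM in the 5 ATRA libraries and 1.60, 2.61, 1.04 and 1.10 CPM in the 4 MEHP + ATRA libraries, against 0 to 0.369 CPM (median 0.105) in lower-range vehicle. Every exposed library was above every vehicle library. In counts, these are 29 to 74 per ATRA library and 0 to 7 per lower-range vehicle library, so the low side of the comparison rests on few reads. The fitted log2 change with ATRA was 4.01 ± 0.38 (SE). The proximal promoter is shown because Hoxb1 is a known target of its own protein together with PBX cofactors. In the 250 bases before its start in the RefSeq promoter table (GRCm38.p6, chr11:96365508-96365757, plus strand), capitals mark the only match to the PBX-HOX composite motif TGATNNAT, searched on both strands.
Hoxb1: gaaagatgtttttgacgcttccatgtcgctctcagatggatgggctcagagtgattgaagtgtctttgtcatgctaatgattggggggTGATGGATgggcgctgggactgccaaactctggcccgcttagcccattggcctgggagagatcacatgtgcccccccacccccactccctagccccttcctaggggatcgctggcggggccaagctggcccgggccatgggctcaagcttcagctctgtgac
This motif occurred in 8.85% of all 32851 promoters of that table and in 4 of the 22 members it lists (Hoxa2, Hoxb1, Hoxb8 and Hoxd11). Of these 4, Hoxa2, Hoxb8 and Hoxd11 did not pass the test with ATRA, with log2 changes of 0.81, 0.39 and -0.12.

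Group 4 holds a paralog in every cluster, and these 4 genes divided by cluster. Hoxb4, known for expanding blood stem cells when overexpressed, stood at 8.49, 13.7, 14.1, 10.2 and 11.7 CPM with ATRA and at 11.2, 12.8, 10.3 and 11.8 CPM with MEHP + ATRA, against 1.65 to 4.32 CPM (median 2.32) in lower-range vehicle. It rose by 2.202 ± 0.19 on the log2 scale with ATRA (4.60-fold, adjusted p 1.46e-10), and no exposed library reached down to the vehicle range. Hoxa4, a gene of cervical vertebra patterning, stood at 1.44, 2.75, 4.23, 1.23 and 1.74 CPM with ATRA and at 2.33, 3.12, 1.17 and 2.36 CPM with MEHP + ATRA, against 0.208 to 0.685 CPM (median 0.454) in vehicle. Its log2 change of 2.34 ± 0.32 (5.07-fold, adjusted p 1.5e-06) was of the same order as that of Hoxb4, and the groups again did not overlap. Hoxc4 stood at 25.7, 23.6, 31.8, 25.7 and 26.3 CPM with ATRA and at 22.5, 28.5, 23.8 and 29.97 CPM with MEHP + ATRA, against 15.3 to 18.6 CPM (median 16.9) in vehicle. The rise of Hoxc4 was smaller, 0.63 ± 0.10 on the log2 scale (adjusted p 9.04e-06), although its libraries separated completely. Hoxd4, long known to respond to retinoids in cultured cells, stood at 22.2, 21.9, 27.6, 20.4 and 22.3 CPM with ATRA, inside its vehicle range of 19.0 to 27.3 CPM (median 22.8) except for the library at 27.6. Its log2 change was -0.01 ± 0.10, with a 95% interval of -0.20 to 0.18 and an adjusted p of 0.957, and its sign depended on single libraries.

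Of these 4 genes 3 are in the promoter table, and each of the 3 holds 1 match to the nuclear receptor half-site AGGTCA, which retinoic acid receptors bind in pairs. The sequences are shown because these paralogs carry the match at a comparable distance and differed in response. Capitals mark the match, which reads TGACCT on the strand of the gene because it lies on the other strand. The windows are chr11:96318156-96318221, chr15:103034219-103034284 and chr2:74721803-74721868 (GRCm38.p6, all plus strand).
Hoxb4: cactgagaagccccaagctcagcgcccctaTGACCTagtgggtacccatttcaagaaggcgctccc
Hoxc4: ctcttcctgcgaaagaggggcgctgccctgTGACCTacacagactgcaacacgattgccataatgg
Hoxd4: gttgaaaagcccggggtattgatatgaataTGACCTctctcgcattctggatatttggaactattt
The half-site begins 81 bases before the start of Hoxb4, 146 before that of Hoxc4 and 145 before that of Hoxd4. For Hoxc4 and Hoxd4 this start lies inside the counted gene, whose exons begin further upstream, at 103018934 and 74711929. It occurred in 16.3% of the 32851 promoters, and in 7 of the 22 listed members (Hoxa5, Hoxb4, Hoxc4, Hoxd3, Hoxd4, Hoxd8 and Hoxd10). None of the 22 held the direct repeat forms of the retinoic acid response element with 2 or 5 spacer bases on either strand of this window of 300 bases. Of all promoters, 0.268% and 0.0974% held them.

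Hoxa2 and Hoxb2, the group 2 paralogs, act in hindbrain and branchial arch patterning. Hoxb2 stood at 1.23, 1.40, 1.82, 1.44 and 1.37 CPM with ATRA and at 1.64, 1.86, 1.85 and 1.79 CPM with MEHP + ATRA, against 0.728 to 1.32 CPM (median 0.893) in vehicle. With ATRA alone 1 library fell inside the vehicle range, and the log2 change was 0.61 ± 0.18 (adjusted p 0.0131). Hoxa2, at 0.410 to 1.06 CPM with ATRA against 0.0444 to 0.728 CPM in vehicle, did not pass (log2 change 0.81 ± 0.41, adjusted p 0.201). With MEHP + ATRA it stood at 0.855 to 1.07 CPM, above all vehicle libraries, and passed (1.23 ± 0.42, adjusted p 0.027), but not without MEHP + ATRA replicate 1 or replicate 2. Hoxa2 shares 15.0% of its exon bases with a gene on its own strand, so part of its reads could be assigned to either.

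The group 2 gene Hoxa2 is shown for its promoter, which holds 2 kinds of motif in capitals: the PBX-HOX composite, which reads ATCAATCA here because the match is on the other strand, and the MEIS motif TGACAG. The 141 bases end at the start of the gene (GRCm38.p6, chr6:52164832-52164972, minus strand).
Hoxa2: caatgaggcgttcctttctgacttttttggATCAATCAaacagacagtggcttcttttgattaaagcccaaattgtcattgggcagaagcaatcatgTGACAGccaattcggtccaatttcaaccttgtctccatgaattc
The MEIS motif occurred in 19.2% of all promoters and in 2 of the 22 listed members, Hoxa2 and Hoxa3. The motif TTTATNG of the CDX factors, searched in the same way, occurred in 10.9% of all promoters and in 2 of the 22, Hoxb8 and Hoxd4.

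Hoxa3 and Hoxb3, needed in pharyngeal and neck development, rose with their clusters. Hoxa3 stood at 4.47, 5.15, 7.98, 5.23 and 4.79 CPM with ATRA and at 4.01, 7.03, 4.59 and 5.86 CPM with MEHP + ATRA, against 1.69 to 2.58 CPM (median 2.41) in vehicle. The rise of 1.29 ± 0.19 on the log2 scale (adjusted p 5.97e-06) was present in all 5 ATRA libraries, with replicate 3 highest. Hoxb3 stood at 4.63, 3.88, 5.68, 3.59 and 4.58 CPM with ATRA and at 4.14, 5.54, 4.68 and 4.56 CPM with MEHP + ATRA, against 1.63 to 2.88 CPM (median 2.06) in vehicle. It rose by 1.08 ± 0.17 (adjusted p 1.31e-05) with no overlap between the groups. Hoxd3 did not pass (0.13 ± 0.16, adjusted p 0.679). The antisense transcript Hoxb3os covers 52.9% of the Hoxb3 exon bases and 27.3% of those of Hoxb2. The strand setting of the counting is not given in the sources used here, so reads of Hoxb3, Hoxb2 and Hoxb3os cannot be told apart. Hoxb3os itself had a log2 change of 0.42 ± 0.28 with ATRA (adjusted p 0.37). Genes on the opposite strand also cover 25.4% of the exon bases of Hoxa3, 16.0% of those of Hoxa4 and 20.4% of those of Hoxa7. Part of the reads of these 3 members could thus belong to those genes. Over Hoxa3 they include Hoxaas3 (1.85 ± 0.40) and 5730596B20Rik (1.295 ± 0.26), which rose with ATRA, and Hoxaas2, which did not pass. Hoxd3 and Hoxd4 share 53.1% and 39.1% of their exon bases with a readthrough gene model on the same strand, so their values are uncertain in the same way.

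Hoxa5, a regulator of lung and thoracic development, stood at 3.57, 6.94, 10.2, 4.26 and 5.004 CPM with ATRA and at 4.92, 8.98, 4.32 and 7.74 CPM with MEHP + ATRA, against 1.79 to 3.47 CPM (median 2.11) in vehicle. All exposed libraries were above the vehicle range, and the log2 change with ATRA was 1.39 ± 0.31 (adjusted p 0.00144). Hoxc5 stood at 19.4, 19.2, 33.5, 22.4 and 22.4 CPM with ATRA and at 21.2, 28.4, 20.1 and 23.9 CPM with MEHP + ATRA, against 10.7 to 14.8 CPM (median 13.1) in vehicle. It rose by 0.87 ± 0.14 (adjusted p 2.75e-05), again without overlap. Hoxb5, which acts in enteric neural crest, reached only 0.70 ± 0.24 (adjusted p 0.0392) with ATRA. Its call was lost without any 1 of ATRA replicates 2, 3 or 4 or vehicle replicates 2, 5 or 9, with adjusted p up to 0.188.

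Among the group 6 genes, which belong to the thoracic region, Hoxc6 was the most precisely measured. It stood at 45.8, 43.8, 48.6, 47.6 and 42.4 CPM with ATRA and at 46.1, 49.4, 48.2 and 47.9 CPM with MEHP + ATRA, against 29.3 to 39.7 CPM (median 35.6) in vehicle. The groups did not overlap, although the log2 change with ATRA was only 0.38 ± 0.06 (1.30-fold, adjusted p 8.15e-06). Hoxa6 rose by 1.22 ± 0.29 (adjusted p 0.00213), from 0.454 to 0.877 CPM in vehicle to 1.11 to 1.86 CPM. Hoxb6 rose by 0.63 ± 0.18 (adjusted p 0.0115), a call that was lost without ATRA replicate 3 or replicate 4.

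Of the 9 members of clusters A to C with paralog numbers 7 to 10, Hoxb7, Hoxb9, Hoxc8 and Hoxc9 rose with ATRA. Hoxc8, which specifies thoracic vertebrae and brachial motor neurons, stood at 26.1, 23.6, 33.1, 25.7 and 25.0 CPM with ATRA and at 26.5, 28.7, 24.6 and 27.1 CPM with MEHP + ATRA, against 12.7 to 18.2 CPM (median 15.4) in vehicle. It rose by 0.82 ± 0.11 on the log2 scale (1.76-fold, adjusted p 1.95e-06) with separated groups. Hoxb9, a gene of thoracic rib patterning, stood at 21.1, 21.7, 29.8, 21.7 and 22.6 CPM with ATRA and at 30.5, 31.3, 24.6 and 27.7 CPM with MEHP + ATRA, against 14.7 to 20.7 CPM (median 17.4) in vehicle. Its rise of 0.39 ± 0.10 (adjusted p 0.0069) left the lowest ATRA library just above the highest vehicle library, and the call was lost without ATRA replicate 3. Hoxb7 (0.59 ± 0.18, adjusted p 0.0205) lost its call without ATRA replicate 1, and Hoxc9 (0.41 ± 0.14, adjusted p 0.0398) in 11 of the 30 fits that left out 1 library, with adjusted p up to 0.0868. For Hoxc9 these were each of the 5 fits that left out an ATRA library and those without vehicle replicate 2, 5, 7, 8, 9 or 15. Hoxa7, Hoxa9, Hoxa10, Hoxb8 and Hoxc10 had log2 changes of 0.21 to 0.42 and did not pass. Of these, Hoxc10 was called by limma-voom (adjusted p 0.00884) and by edgeR without the range term (0.0217). Hoxa10 is known for its part in uterine identity and testicular descent, and its 95% interval with ATRA was -0.28 to 0.71.

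**Figure D3:**
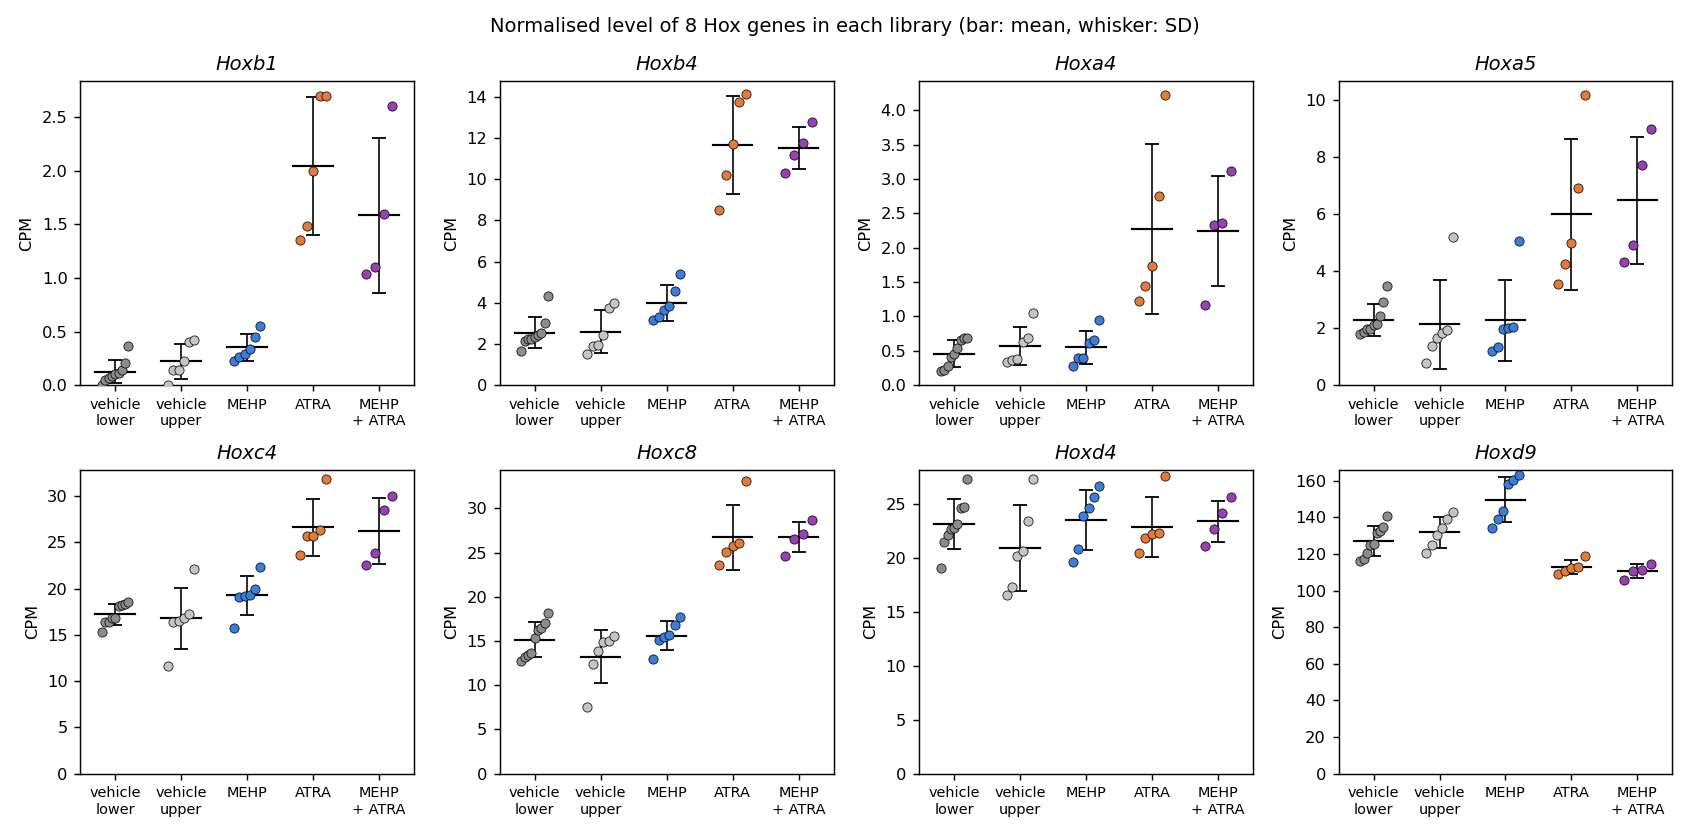
Normalised level (CPM, each vertical axis starting at 0) of 8 Hox genes in each of the 30 libraries, by group. Points are libraries, bars are means and whiskers are SD. The ATRA and MEHP + ATRA points stand above vehicle for Hoxb1, Hoxb4, Hoxa4, Hoxa5, Hoxc4 and Hoxc8, overlap it for Hoxd4 and lie at or below its lower end for Hoxd9.

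In cluster D, the most abundant Hox gene of the tissue fell. Hoxd9 stood at 109 to 119 CPM with ATRA and at 106 to 115 CPM with MEHP + ATRA, against 116 to 141 CPM (median 125) in lower-range vehicle. Of the 5 ATRA libraries 4 were below the vehicle range, and the highest, at 119 CPM, was inside its lower end. All MEHP + ATRA libraries were below that range. The fall was small, -0.17 ± 0.05 on the log2 scale with ATRA (adjusted p 0.0163). The other 6 tested members of D had log2 changes of -0.15 to 0.17, with adjusted p of 0.179 or more. They were Hoxd1, Hoxd3, Hoxd4, Hoxd8, Hoxd10 and Hoxd11.

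Summed over members, the cluster totals moved apart in the same way. The summed level of cluster A was 4.45 to 6.08 RPKM in lower-range vehicle and 7.80 to 15.3 RPKM with ATRA. Cluster B went from 10.3 to 13.4 RPKM to 18.2 to 24.6 RPKM, and cluster C from 32.7 to 39.7 RPKM to 48.9 to 61.7 RPKM. The ranges of these 3 clusters did not overlap between the groups. Cluster D held 98.0 to 114.0 RPKM in vehicle and 89.5 to 99.8 RPKM with ATRA, with overlap. Its share of the summed Hox RPKM was 66.6 ± 0.96% in vehicle (n = 9), 53.4 ± 2.3% with ATRA (n = 5) and 52.2 ± 2.5% with MEHP + ATRA (n = 4). These sums describe the members already tested above and were given no test of their own.

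**Figure D4:**
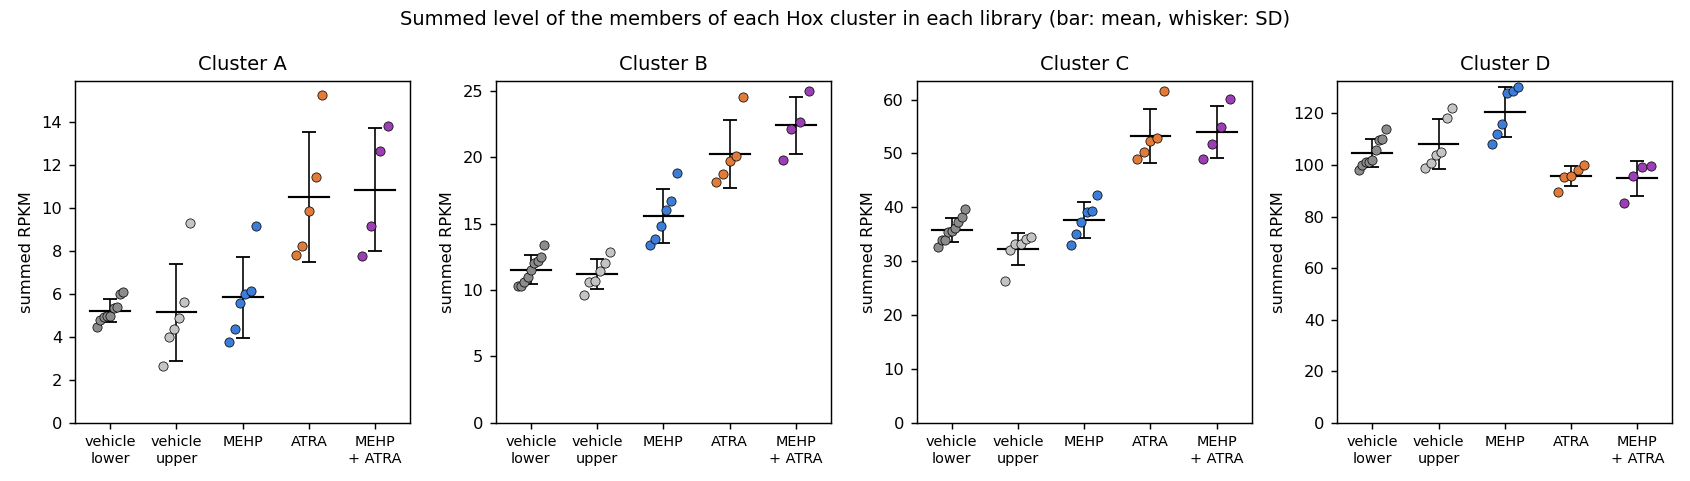
Summed level per kb of exon (RPKM, each vertical axis starting at 0) of the members of each Hox cluster in each library, by group. Points are libraries, bars are means and whiskers are SD. In clusters A, B and C the ATRA and MEHP + ATRA libraries lie above lower-range vehicle, and in cluster D they lie at or below its lower end, from 85.1 to 99.8 RPKM.

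With MEHP + ATRA, 16 of the 29 tested members other than Hoxb1 rose and 2 fell. Over all genes, 14.3% rose and 14.7% fell in this comparison, and the median log2 change was 0.56 for these members and -0.01 for all genes. This comparison shares its 9 lower-range vehicle libraries with the ATRA comparison, so the values are given side by side only. Hoxb1 had a fitted log2 change of 3.63 ± 0.41 (4.01 with ATRA alone). Hoxb4 rose by 2.18 ± 0.20 (2.202) and Hoxa4 by 2.31 ± 0.34 (2.34). Beside Hoxb1, all 13 tested members of clusters A to C with paralog numbers 1 to 6 passed, the smallest change being that of Hoxc6 at 0.45 ± 0.06. Of the 9 with numbers 7 to 10, 3 passed: Hoxc8 (0.82 ± 0.12), Hoxb9 (0.67 ± 0.11) and Hoxb7 (0.56 ± 0.20). Hoxb7 lost this call without vehicle replicate 2 or 9 or MEHP + ATRA replicate 1 or 4, with adjusted p up to 0.118. Hoxc9 (adjusted p 0.080) and Hoxc10 (0.087) did not pass in this fit, but limma-voom called both (0.00161 and 0.0189), and so did edgeR without the range term (0.0253 and 0.0233). Hoxc9 was also called with the block on the first title number and in 4 of the 30 fits that left out 1 library, and Hoxc10 in 2 of them. The members that fell were Hoxd9 (-0.20 ± 0.06, adjusted p 0.0065) and Hoxd11 (-0.48 ± 0.13, adjusted p 0.00577), a gene known for forelimb and kidney development. Hoxd11 stood at 3.62, 5.91, 6.08 and 5.66 CPM, just below the vehicle range of 6.09 to 8.53 CPM. Without MEHP + ATRA replicate 1, the library at 3.62, its change was -0.33 and its adjusted p 0.0648.

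Between MEHP + ATRA and ATRA, the model of group and range called 0 of the 30 tested members higher and 0 lower (edgeR), where 1.62% of all genes rose and 1.38% fell. At an unadjusted p under 0.05 there were 2 of the 30, Hoxb9 (0.28 ± 0.12, unadjusted p 0.0276) and Hoxd11 (-0.36 ± 0.15, unadjusted p 0.0198). Over all genes, 2576 of 19323 were under that level. DESeq2 and limma-voom also called 0 members, whereas edgeR with a block on the first title number called Hoxb9 higher (0.44, adjusted p 0.0427). These misses do not show that the exposures act alike. The 95% interval of the difference ran from -1.096 to 0.34 log2 units for Hoxb1, from -0.44 to 0.40 for Hoxb4 and from -0.07 to 0.21 for Hoxc6. The interaction compares the effect of MEHP with ATRA, seen only in lower-range libraries, to its effect without ATRA, seen only in upper-range ones. It cannot be told apart from a difference of the MEHP effect between ranges. The interaction also called 0 members (edgeR, DESeq2 and limma-voom), and over all genes 0.0104% were higher and 0.0207% lower. At an unadjusted p under 0.05 the interaction had 4 of the 30 members, all negative: Hoxb4, Hoxb6, Hoxd9 and Hoxd11. Hoxd11 had the largest of these relative to its error (-0.59 ± 0.19, adjusted p 0.62). Over all 19323 genes, 827 were under that unadjusted level, 463 of them negative. Interaction estimates were above 0 in 5 of the 30 members and in 9369 of all genes.

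With MEHP alone, 4 of the 30 tested members rose and 0 fell, against 2.88% and 1.84% of all genes. The median log2 change was 0.23 for the members and -0.01 for all genes. Of the 30 estimates 28 were above 0 (27 of 29 without Hoxb1), against 8804 of 19323 over all genes. Hoxb9 stood at 17.5 to 27.05 CPM (median 23.7) with MEHP, against 13.3 to 20.2 CPM (median 16.9) in upper-range vehicle (n = 6 in each). It rose by 0.45 ± 0.11 (1.36-fold, adjusted p 0.0116), with overlapping ranges. Hoxb6 rose by 0.68 ± 0.19 (adjusted p 0.0338), Hoxc6 by 0.23 ± 0.06 (adjusted p 0.0213) and Hoxd9 by 0.18 ± 0.05 (adjusted p 0.0394). Hoxd9, which was lower with ATRA, stood at 134 to 163 CPM with MEHP against 121 to 143 CPM in upper-range vehicle. Among 3′ genes, Hoxb1 had a log2 change of 0.68 ± 0.49 with MEHP (adjusted p 0.588) and Hoxa4 of -0.07 ± 0.39 (0.967). Hoxb4 (0.63 ± 0.21, adjusted p 0.094) and Hoxb3 (0.57 ± 0.19, 0.0757) missed the threshold in this fit but passed in others. Hoxb4 was called by DESeq2 (0.0498), without the range term (0.011) and without vehicle replicate 3 or 10. Hoxb3 was called without the range term (0.00714), with the block on the first title number (0.0461) and without MEHP replicate 2 or vehicle replicate 6. The count of members that rose with MEHP was fragile. It was 0 when only upper-range libraries were fitted and 1 without MEHP replicate 1 or without MEHP replicate 6. It was 2 without MEHP replicate 5, without vehicle replicate 4 or without vehicle replicate 11.

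The upper and lower ranges of vehicle libraries did not differ in any tested member (0 higher, 0 lower, edgeR), where 0.254% of all genes were higher and 0.119% lower in the upper range. Hoxb2 (0.41 ± 0.17) and Hoxc6 (-0.20 ± 0.06) were at an unadjusted p under 0.05, as were 2607 of all 19323 genes. DESeq2 called Hoxc6 lower (adjusted p 0.0376), and edgeR did so without vehicle replicate 12 (0.0458). Without the range term the MEHP change of Hoxc6 was 0.11 (adjusted p 0.245), and with upper-range libraries alone it was 0.24 (adjusted p 0.0828).

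Of the 8 members that were not tested, Hoxb13 and Hoxd13 were the only ones called against vehicle by a fit without the count filter. Hoxb13, best known in prostate and hindgut, had 5 to 19 counts per ATRA library and 0 to 7 per lower-range vehicle library. Its log2 change in that fit was 1.61 with ATRA (adjusted p 0.0128) and 1.89 with MEHP + ATRA (adjusted p 0.00222). Hoxd13, a digit and genital tubercle gene, had 6 to 11 counts per MEHP + ATRA library, 0 to 4 per lower-range vehicle library and 0 to 7 per upper-range one, with a log2 change of 2.66 (adjusted p 0.000961). With ATRA alone Hoxd13 had 1 to 9 counts and was not called (adjusted p 0.0993). All 8 untested members stayed at or below 0.692 CPM in every ATRA library.

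Other genes of the pathway were taken from 10 lists, and over all genes tested 9.06% rose and 9.03% fell with ATRA. Of the 10 genes of retinoic acid synthesis, binding and breakdown, 6 rose and 2 fell with ATRA. Cyp26a1, which breaks down retinoic acid, rose from 0.235 ± 0.19 to 17.2 ± 7.3 CPM (SD, n = 9 and 5), with a log2 change of 6.10 ± 0.31. Cyp26c1 (5.77 ± 0.40) and Dhrs3 (2.59 ± 0.06), which lower retinoid levels, also rose, and the synthesis enzyme Aldh1a1 fell by 0.85 ± 0.09. Of the 6 receptors, 2 rose and 1 fell: Rarb (3.85 ± 0.16), itself a retinoic acid target, Rarg (0.34 ± 0.09) and Rara (-0.26 ± 0.08). Both tested genes among the 7 caudal and ParaHox genes rose. Cdx1, a retinoid-responsive activator of Hox genes, went from 0.383 ± 0.17 to 5.69 ± 2.0 CPM (log2 change 3.90 ± 0.31), and Mnx1 changed by 1.62 ± 0.51. In lower-range vehicle, the means of Cyp26a1 and Cdx1 were below the filter's level of 0.512 CPM. Mnx1 stayed in the test in 28 of the 30 fits that left out 1 library. Such genes may have entered the test only through exposed libraries, as Hoxb1 did. This was not checked for the lists, so their counts of genes that rose carry that limit.

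The cofactors that bind DNA with HOX proteins were divided. Of 9 TALE genes, 2 rose and 3 fell with ATRA. Pbx3 fell from 65.1 to 78.3 CPM in vehicle to 32.8 to 39.3 CPM (-0.96 ± 0.07), while Pbx2 rose (0.25 ± 0.07). Pknox2 (-0.33 ± 0.06) and Pknox1 (-0.15 ± 0.05) fell, and Meis1 did not pass (-0.13 ± 0.09, adjusted p 0.411). With MEHP alone Pbx3 was the only cofactor called, at -0.37 ± 0.07 (adjusted p 0.0011).

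Of the 13 listed antisense and intergenic transcripts of the clusters 6 were tested, and 2 rose with ATRA: Hotairm1 (1.64 ± 0.27), which lies at the 3′ end of cluster A, and Hoxaas3 (1.85 ± 0.40), which overlaps exons of Hoxa7 and Hoxa3. Hoxaas2, also in cluster A, did not pass (0.95 ± 0.43, adjusted p 0.135). Among 13 other genes that flank the clusters, Smug1 (0.46 ± 0.09) and Skap2 (0.40 ± 0.14) rose, and 0 fell. Skap2 had an adjusted p of 0.0487 and lost its call in 20 of the 30 fits without 1 library (up to 0.135). The median over these flanking genes was 0.08. Of 19 Polycomb genes, Jarid2 rose (0.29 ± 0.06) and Cbx2 fell (-0.28 ± 0.07), and of 10 Trithorax genes and demethylases 0 changed (edgeR). Of 6 patterning signals 1 rose and 2 fell, among them Gbx2 (2.55 ± 0.49) and Egr2 (-1.17 ± 0.28). The 2 even-skipped genes beside the clusters were not tested. With MEHP + ATRA the numbers that rose and fell were 6 and 4 of 10 for retinoic acid metabolism, 2 and 2 of 6 for the receptors, 2 and 0 of 2 for the caudal genes and 3 and 3 of 9 for the TALE cofactors. They were 3 and 0 of 6 for the antisense transcripts, 2 and 2 of 13 for flanking genes, 4 and 3 of 19 for Polycomb, 0 and 0 of 10 for Trithorax and 1 and 3 of 6 for the signals. Over all genes, 14.3% rose and 14.7% fell with MEHP + ATRA. With MEHP alone Dhrs3 rose (0.57 ± 0.07) and Aldh1a1 (-0.34 ± 0.09) and Pbx3 fell, and 0 other tested genes of these lists passed. Of all genes, 2.88% rose and 1.84% fell with MEHP. Between MEHP + ATRA and ATRA, Dhrs3 was the only tested gene of these lists to pass (0.46 ± 0.08, adjusted p 0.000266). There, 1.62% of all genes rose and 1.38% fell.

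In bulk tissue, fewer cells of a type and less RNA per cell cannot be told apart. Over all genes tested, 9.06% were higher and 9.03% lower with ATRA, and 2.88% and 1.84% with MEHP. With MEHP + ATRA these shares were 14.3% and 14.7%. Of 8 Sertoli cell markers, 5 were higher and 1 lower with ATRA, with sums of 1668 to 2012 CPM against 1379 to 2132 CPM in lower-range vehicle. With MEHP 3 were higher and 1 lower, with sums of 1539 to 2274 CPM against 1730 to 2780 CPM in upper-range vehicle. Of 6 endothelial markers, 3 were higher with MEHP (177 to 311 CPM against 167 to 276 CPM) and 1 with ATRA. The sum of 6 ovarian somatic markers was 224 to 262 CPM with ATRA and 92.6 to 120.5 CPM in lower-range vehicle, with 3 higher and 0 lower. That of 5 coelomic and surface epithelium markers was 275 to 449 CPM against 191 to 280.0 CPM, with 2 higher and 0 lower. The 5 neural crest and glia markers summed to 67.4 to 88.0 CPM against 38.4 to 63.6 CPM, and to 57.7 to 92.8 CPM with MEHP against 37.8 to 65.3 CPM in upper-range vehicle. Of the 4 tested, 3 were higher and 1 lower with ATRA, and 1 was higher and 0 lower with MEHP. The sum of the 7 interstitial progenitor markers was lower with ATRA, 2281 to 2343 CPM against 2437 to 2652 CPM, with 3 markers lower and 1 higher. The 10 mesonephric markers overlapped, at 22.1 to 24.6 CPM against 17.0 to 30.8 CPM. Of the 7 tested, 2 were higher with ATRA, and 2 were higher and 2 lower with MEHP + ATRA. The part of these cell types in the Hox changes was not tested.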

How the data were processed

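RNA was measured by poly(A)-selected sequencing of 30 fetal testis cultures, grouped by their treatment label. The authors deposited unnormalised counts for every gene, with the column layout of featureCounts per the file headers. The submitters' processing notes name STAR 2.5.2b, Trimmomatic 0.36, bcl2fastq 2.20, DESeq2 and featureCounts (Subread 1.5.2). The sources used here do not give the build, the annotation or the strand setting. All 38 members have the coordinates of GENCODE M21 (GRCm38), and 15 of them overlap exons of another gene.

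Counts were analysed with edgeR 4.0.16 (R 4.3.3): filterByExpr with a minimum count of 10, TMM factors of 0.975 to 1.023, and a quasi-likelihood model of group and range over all 30 libraries with 25 residual degrees of freedom. F tests were two-sided, with Benjamini-Hochberg adjustment over 19323 genes and a threshold of 0.05. SE was taken from the log2 change and F, and 95% intervals are 1.96 SE. CPM use TMM-scaled totals, and RPKM divide these by exon length in the files. The script was tested on simulated data.

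Alternatives were size factors of the RLE kind, no filter, a filter of 1 CPM in 4 libraries, no range term, libraries of 1 range only, a block on the first title number, DESeq2 1.42.0, limma-voom (limma 3.58.1) with sample weights, and leaving out each library. Counts of members called with ATRA or MEHP + ATRA against vehicle leave out Hoxb1, which passed the filter only through exposed libraries. Members and lists were chosen with earlier results of these data known. Values are printed in full for the 12 members with the smallest adjusted p in any treatment comparison. From each list, up to 4 called genes with the smallest p with ATRA are named, plus Cdx1, Cyp26a1, Rarb and Meis1, and some listed genes are not reported here. Pknox1, Hoxb13, Hoxd13, Hoxaas2, Hoxb3os and 5730596B20Rik were named after their values were seen. Promoter sequences are from RefSeq (GRCm38.p6), which listed 22 of the 38 members, and motif matches are descriptions only.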

Additional observations from a re-analysis of the deposited data

Results flagged for a closer look

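In 150 groups of values (30 members in 5 groups of libraries), 12 held a highest or lowest library farther from the others than a 95% critical value of Dixon's test allows, and chance marks about 1 group in 20. ATRA replicate 3 was the highest of its 5 libraries in 5 of them. It held 7.98 CPM of Hoxa3 (others 4.47 to 5.23), 29.8 CPM of Hoxb9 (others 21.1 to 22.6), 33.5 CPM of Hoxc5 (others 19.2 to 22.4), 33.1 CPM of Hoxc8 (others 23.6 to 26.1) and 27.6 CPM of Hoxd4 (others 20.4 to 22.3). MEHP + ATRA replicate 1 was the lowest of its 4 libraries for Hoxd8, at 42.5 CPM (others 51.2 to 52.5), and for Hoxd11, at 3.62 CPM (others 5.66 to 6.08). Vehicle replicate 6 was the highest of the 6 upper-range vehicle libraries for Hoxa5, at 5.20 CPM (others 0.791 to 1.92), and for Hoxb5, at 1.54 CPM (others 0.744 to 1.02). MEHP replicate 1 held 5.05 CPM of Hoxa5 (others 1.21 to 2.05), and MEHP replicate 5 held 5.92 CPM of Hoxc10 (others 4.10 to 4.74). Vehicle replicate 12 held 4.32 CPM of Hoxb4, against 1.65 to 2.99 CPM in the other 8 lower-range vehicle libraries.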

How the results depend on the processing

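Recomputing 79 single-gene results in 8 alternative settings and in 30 fits that left out 1 library gave 2995 values, which share those fits. Of these values, 2875 kept their direction and side of the threshold, 103 lost the call, 11 gained one and 6 changed sign. All 6 were in members of cluster D that were not called with ATRA. Without the range term Hoxd4 was 0.043. Over fits that left out 1 library, Hoxd4 ran from -0.094 to 0.025, Hoxd3 from -0.014 to 0.23 and Hoxd10 from -0.10 to 0.028. The count of members that rose with MEHP was 2 with no filter and 0 with upper-range libraries only, and 1 to 5 when leaving out a library. The count that fell with ATRA was 2 without the range term (Hoxd8 added). The count that fell with MEHP + ATRA was 1 to 2 when leaving out a library. Between ranges, the count that was lower was 1 with DESeq2 and 0 to 1 when leaving out a library. Fewer libraries or more genes enter some of these fits, and the cause of the other shifts was not tested. A replicate block on the first title number called 1 member higher with MEHP + ATRA than with ATRA, Hoxb9 (0.44, adjusted p 0.0427). It also called Hoxb3 higher with MEHP (0.56, adjusted p 0.0461) and Hoxc9 higher with MEHP + ATRA (0.39, adjusted p 0.0494), and left Hoxb5 uncalled with ATRA (adjusted p 0.0618). Over the 9 combinations of first number and range, deviations of treated and vehicle libraries with the same number correlated at 0.083 to 0.648, with 7 of 9 above 0.1, against a median of -0.084 for different numbers. All 9 correlated best with their own number, a hint of shared origin from the data that the labels do not state. Since 2 of 9 missed 0.1, the block was kept as an alternative. The interaction could not be fitted on 1 range only. Members at under 1 CPM rest on few reads, and depth limits what can be seen in them.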

Other observations

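Hoxa5 levels differed with the first title number, a pattern chosen after its values were seen. The 2 libraries with the highest first number were the highest of the 9 lower-range vehicle libraries, at 3.47 and 2.90 CPM against 1.79 to 2.43 CPM in the other 7. The 2 libraries with that number were also the highest of the ATRA libraries, at 10.2 and 6.94 CPM against 3.57 to 5.004 CPM, and of the MEHP libraries, at 5.05 and 2.05 CPM against 1.21 to 2.00 CPM. In upper-range vehicle, 1 of the 2 libraries with it was the highest at 5.20 CPM and the other was at 1.36 CPM, within the 0.791 to 1.92 CPM of the remaining 4. No MEHP + ATRA library carries this number.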
